A study of Mus musculus with 24 samples.

Results

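The miRNAs described here are the 9 mature members of the miR-15 family (miR-15, miR-16, miR-195, miR-497, miR-322 and miR-503) that were measured in mouse lung, taken by name from the 1950 mature miRNA names in the deposited tables. They are mmu-miR-15a-5p, mmu-miR-15b-5p, mmu-miR-16-5p, mmu-miR-195a-5p, mmu-miR-497a-5p, mmu-miR-322-5p, mmu-miR-322-3p, mmu-miR-503-5p and mmu-miR-503-3p (named without the mouse prefix from here on), and they were chosen by identity, with no measured value in the rule. Small RNA was sequenced from lungs of C57BL/6 mice, an inbred strain, given as 6 to 8 weeks old. The irradiated mice received 15 Gy of X-rays to the whole thorax, and the other mice are labelled control, with no treatment named for them. Lungs were taken at day 14, day 90 and day 180, with 4 irradiated and 4 control libraries at each day and 24 in all. No transgene, deletion or second treatment is named for any group. Whether each library is a separate animal is not stated in the labels, so p-values measure the spread between these libraries, which may in part be technical. By its title the study is about miR-208a-3p in radiation-induced lung injury, and the comparisons address how lung miRNAs differ after irradiation at early and late times.

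A miRNA guides the Argonaute protein to mRNAs that pair with its seed, bases 2 to 8 counted from its 5′ end, and lowers their stability or translation. Members of this family share a seed and are known for restraining cell proliferation: they target mRNAs of D-type and E-type cyclins, of cyclin-dependent kinases and other cell-cycle regulators, and, for miR-15a and miR-16, of the survival factor BCL2. The family is spread over several hairpin clusters, each close enough to share a transcript. Of its members, miR-195a is known for limiting the regeneration of the neonatal mouse heart, while miR-322 and miR-503 are known for roles in muscle differentiation.

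The mature sequences are shown because the family is defined by them. They are from RefSeq (GRCm38.p6), 5′ to 3′, with the seed in capitals, and all 9 members matched an entry. The first 6 carry one seed.
miR-15a-5p: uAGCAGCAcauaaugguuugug
miR-15b-5p: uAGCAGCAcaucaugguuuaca
miR-16-5p: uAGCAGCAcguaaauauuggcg
miR-195a-5p: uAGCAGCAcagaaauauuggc
miR-497a-5p: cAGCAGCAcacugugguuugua
miR-322-5p: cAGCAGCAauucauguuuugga
miR-503-5p: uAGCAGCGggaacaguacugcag
miR-322-3p: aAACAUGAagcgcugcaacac
miR-503-3p: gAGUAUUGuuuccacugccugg
The seed of miR-503-5p differs from that of miR-16-5p by A8G, with positions counted from 1 at the 5′ end of miR-16-5p. The opposite arms miR-322-3p and miR-503-3p have unrelated seeds and belong here only by their hairpins. Over the whole length, seed included, miR-195a-5p is the closest relative of miR-16-5p: 19 of 21 compared bases are identical and the differences are G10A and U11G. Between miR-15a-5p and miR-15b-5p, 18 of 22 bases are identical, with the differences A12C, G20A, U21C and G22A counted in miR-15a-5p. How the authors' counting assigned reads that fit more than 1 such relative is not stated in the labels, so the split between miR-16-5p and miR-195a-5p, and between miR-15a-5p and miR-15b-5p, is uncertain. Among the other miRNAs of the tables with a RefSeq sequence, miR-6353 alone has a family seed, and it had a count of 1 over all 24 libraries.

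In GENCODE's annotation of GRCm38, Mir15a lies on chromosome 14 from 61632027 to 61632110, minus strand, in an intron of the noncoding gene Dleu2. Mir16-1 lies beside it from 61631880 to 61631972, within an exon of a Dleu2 transcript. Mir15b lies on chromosome 3 from 69009772 to 69009835, plus strand, and Mir16-2 from 69009902 to 69009996, both in an intron of Smc4, which encodes a condensin subunit needed for chromosome compaction. These hairpins give the same mature miR-16-5p, so its level cannot be divided between chromosome 3 and chromosome 14. This is visible in the hairpins, printed with the mature miR-16-5p in capitals.
Mir16-2: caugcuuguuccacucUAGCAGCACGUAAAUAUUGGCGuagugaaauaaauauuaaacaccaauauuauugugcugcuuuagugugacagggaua
Mir16-1: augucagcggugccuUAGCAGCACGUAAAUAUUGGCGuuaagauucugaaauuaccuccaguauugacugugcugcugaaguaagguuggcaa
Mir497 and Mir195a lie on chromosome 11, plus strand, from 70234717 to 70234800 and from 70235042 to 70235135, a span of 419 bases outside other annotated genes on that strand. Mir497b is annotated on the opposite strand of Mir497, and the labels do not state whether the counting used strand. Mir503 lies on chromosome X from 53053984 to 53054054 and Mir322 from 53054255 to 53054349, both on the minus strand. They belong to a run of 6353 bases that also holds Mir351, Mir542, Mir450-1, Mir450-2 and Mir450b.

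Total counts were 2832205 to 3695133 per library, and all 9 members passed the filter on low counts in every comparison. Levels within a day are CPM, counts per 1000000 of a library size adjusted by TMM, which scales libraries to the bulk of their miRNAs, computed over that day's 8 libraries. Ligation and PCR favour some small RNAs over others, so levels of different miRNAs are only roughly comparable, while a miRNA's own level can be compared between libraries. Lists of markers for endothelial, epithelial, ciliated, smooth muscle, striated muscle, erythroid, lymphoid, myeloid, stratified epithelial and liver cells were detected in every group, with no marker at 0 in all libraries of a group. Endothelial markers miR-126a-3p and miR-126a-5p summed to 35794 to 57787 CPM, and the 5 epithelial markers of the miR-200 family to 30447 to 68709 CPM. Irradiated library 1 of day 180 stood apart from the other 7 of its day: it held the lowest of the 8 values for 35.1% of 552 miRNAs and the highest for 29.2%. Fold changes of day 180 are therefore given with and without it. Irradiated library 4 came next, with the lowest value for 16.5% of the 552 and the highest for 23.4%.

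Across the 24 libraries, scaled together, miR-16-5p was the most abundant member, with a median of 23664 CPM and a range of 19867 to 30087 CPM, and it ranked 12th of the 1477 miRNAs in all 3 tables. It exceeded the next member in all 24 libraries and had the narrowest range of the 9, its highest value being 1.51 times its lowest. Next came miR-322-5p with a median of 8998 CPM and miR-15a-5p with 7962 CPM. Their order was not stable, since miR-322-5p was the higher in 15 of 24 libraries. Below them stood miR-497a-5p (median 4534 CPM), miR-195a-5p (2596 CPM) and miR-15b-5p (1744 CPM), each above the next member in 22 to 24 libraries. The low members were miR-322-3p (289 CPM), miR-503-5p (86.8 CPM) and miR-503-3p (39.3 CPM), with neighbours in that order in 23 or 24 libraries.

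**Figure D1:**
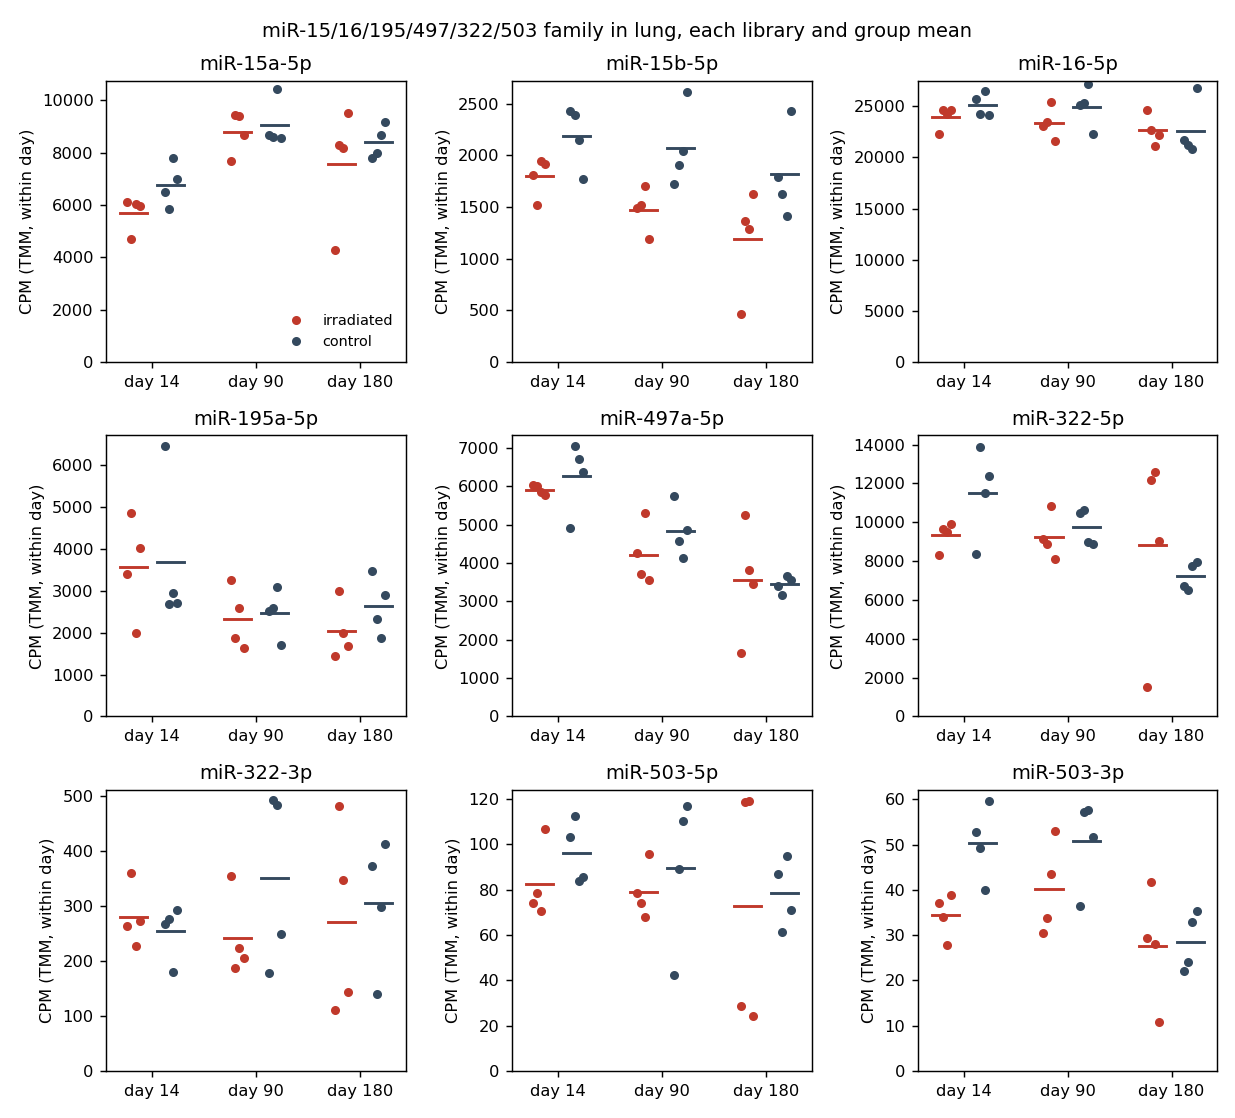
Levels of the 9 family members in CPM, scaled within each day, for irradiated (red, left) and control (dark, right) libraries at days 14, 90 and 180; points are libraries and short lines the means of 4. miR-16-5p stays between 20842 and 27151 CPM in every library, while miR-322-5p of day 180 lies at 1501 CPM in 1 irradiated library and at 9050 to 12582 CPM in the other 3.

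Irradiation was compared with control lungs at each day by edgeR's quasi-likelihood test with Benjamini-Hochberg adjustment over all miRNAs tested. None of the 9 members passed the adjusted threshold of 0.05 at any day, and few miRNAs did at all: 0% of 499 at day 14, 0.358% of 558 at day 90 and 0% of 552 at day 180. With DESeq2 the members called were again 0 at each day, against 1, 18 and 26 calls among all miRNAs, 0.0606%, 1.72% and 3.14% of those given an adjusted p. At an unadjusted p under 0.05 there were 1, 1 and 0 members at days 14, 90 and 180, beside a background of 5.41%, 12.7% and 18.3%. The members' fold changes leaned towards lower levels after irradiation, being below 0 on the log2 scale in 8 of 9 at day 14, 9 of 9 at day 90 and 6 of 9 at day 180, where 48.1%, 52% and 41.1% of all miRNAs tested were below 0. Their median log2 fold changes were -0.22, -0.18 and -0.11, beside medians of 0.01, -0.02 and 0.13 over all miRNAs tested. With the authors' totals as library sizes, 8 members were below 0 at day 90 and 7 at day 180. The members' medians were then -0.14 and -0.08, beside 0.02 and 0.11 over all miRNAs tested. Without irradiated library 1 of day 180, 4 of the 9 were below 0 at that day, beside 49.7% of the 575 miRNAs tested in that fit. The members' median was then 0.03, beside 0.0007 over all miRNAs tested. The members share libraries and scaling, so this lean is a description and not a test. The sum of the 2 lymphoid markers, miR-150-5p and miR-342-3p, was also lower on the median, with both markers lower on average at days 14 and 90. It ran from 13285 to 16074 CPM in irradiated and 15866 to 19782 CPM in control libraries of day 14, and from 11381 to 17204 CPM in irradiated and 16145 to 27341 CPM in control libraries of day 90. At day 180 it was 16309 to 20068 CPM in irradiated and 16723 to 23287 CPM in control libraries, with 1 of the 2 markers lower on average. The ciliated, myeloid and stratified epithelial lists also had every marker lower on average at day 14. So did smooth muscle at day 90, and stratified epithelium and liver at day 180. No marker was lower on average in the endothelial, erythroid and liver lists at day 14. The same held for the epithelial, ciliated, striated muscle and liver lists at day 90. Marker sums separated the groups in 2 cases, the liver marker miR-122-5p at day 90 (611 to 1004 CPM in irradiated and 154 to 446 CPM in control libraries) and the 2 stratified epithelial markers at day 180 (582 to 790 CPM in irradiated and 818 to 891 CPM in control libraries). The part of these markers in the members' values was not tested. In whole lung, fewer cells of a type and less RNA per cell cannot be told apart.

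**Figure D2:**
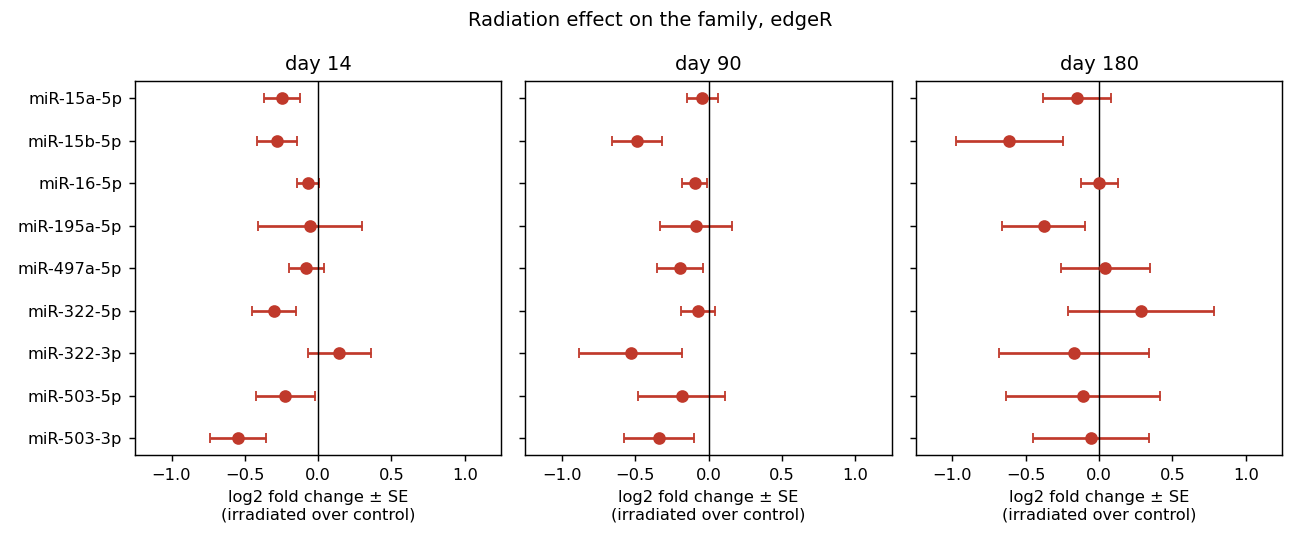
Log2 fold change (irradiated over control) with its SE for each member at days 14, 90 and 180, from edgeR with 4 libraries per group. Points lie left of 0 for 8, 9 and 6 of the 9 members, and none passed the adjusted threshold. The bars are widest at day 180 for every member except miR-195a-5p.

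Within the miR-15/miR-16 clusters, miR-15b-5p, the partner of miR-16-2 in Smc4, had lower mean levels in irradiated than in control lungs at all 3 days. At day 14 it stood at 1812, 1518, 1945 and 1913 CPM in irradiated libraries and at 2426, 2394, 2149 and 1771 CPM in control libraries, and 1 control library lay among the irradiated ones. At day 90 it stood at 1486, 1520, 1706 and 1188 CPM in irradiated libraries, against 1727, 1903, 2039 and 2611 CPM in control libraries. Every irradiated library of day 90 was thus below every control library, a separation in the lower direction that 2.33% of the 558 miRNAs tested had. The log2 fold change was -0.28 ± 0.14 at day 14 and -0.49 ± 0.17 at day 90 (SE, n = 4 per group), with edgeR adjusted p of 0.907 and 0.269. At day 180 irradiated libraries had 463, 1367, 1290 and 1629 CPM and control libraries 1794, 1629, 1412 and 2429 CPM. The groups overlapped there, as did those of all 9 members at day 180, where 6.52% of 552 miRNAs had every irradiated library below every control. For miR-15b-5p the log2 fold change there was -0.61 ± 0.37 (edgeR adjusted p = 0.414), or -0.36 (adjusted p = 0.296) without irradiated library 1. miR-15b-5p therefore passed the adjusted threshold at no day, and its sign was negative at all 3.

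miR-15a-5p, the other miR-15, stood at 6111, 4715, 6047 and 5963 CPM in irradiated libraries of day 14, against 6492, 5840, 7782 and 6990 CPM in its control libraries, and 1 control library lay below 3 irradiated ones. Its log2 fold change was -0.25 ± 0.12 (edgeR adjusted p = 0.907). At day 90 irradiated lungs averaged 8803 ± 834 CPM and control lungs 9068 ± 909 CPM (SD, n = 4 each), closer to each other than the spread of either group. At day 180 irradiated lungs averaged 7569 ± 2279 CPM and control lungs 8401 ± 634 CPM, and the irradiated mean rests on library 1, with 4277 CPM against 8160 to 9533 CPM in the other 3. Without that library the log2 fold change was 0.03 in place of -0.15. The ratio of miR-15a-5p to miR-15b-5p, as a mean over 4 libraries, was 3.18 in irradiated and 3.17 in control lungs at day 14. It was 6.05 in irradiated and 4.48 in control lungs at day 90, and 6.87 in irradiated and 4.79 in control lungs at day 180. The irradiated mean of day 180 includes library 1 at 9.24. The other irradiated libraries of that day had 5.85 to 6.32, and control libraries 3.77 to 6.14.

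miR-16-5p, the family's main product, differed little between the arms. Irradiated libraries had 22314 to 24634 CPM and control libraries 24127 to 26530 CPM at day 14. The ranges overlapped at their edges, and the log2 fold change was -0.07 ± 0.07 (edgeR adjusted p = 0.919). Means were 23369.7 ± 1567 CPM with irradiation and 24956 ± 2000 CPM without it at day 90, and 22662 ± 1470 CPM with irradiation and 22626 ± 2763 CPM without it at day 180. The log2 fold changes at days 90 and 180 were -0.09 ± 0.08 and 0.0023 ± 0.12, and the sign at day 180 turned in 3 of the 6 other fits of all 8 libraries.

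Of the chromosome 11 pair, miR-497a-5p had 5777 to 6036 CPM in the 4 irradiated libraries of day 14, a span inside the control range of 4902 to 7051 CPM. Its log2 fold changes were -0.08 ± 0.12, -0.20 ± 0.16 and 0.04 ± 0.30 at days 14, 90 and 180, with edgeR adjusted p of 0.940, 0.683 and 0.956. Without irradiated library 1 the day 180 value was 0.27 (adjusted p = 0.309). miR-195a-5p, its neighbour, was more scattered: 3395, 4850, 1995 and 4015 CPM in irradiated libraries of day 14, against 6461, 2678, 2947 and 2699 CPM in its controls. A single control library held the highest value and the others lay among the irradiated ones. Its log2 fold changes were -0.05 ± 0.35, -0.09 ± 0.24 and -0.38 ± 0.28 at days 14, 90 and 180, and no call was made. The ratio of miR-497a-5p to miR-195a-5p ran from 0.759 to 2.93 over the 24 libraries, although the hairpins lie within 419 bases.

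On chromosome X, miR-322-5p, the mouse counterpart of human miR-424, had 8296, 9668, 9497 and 9910 CPM in irradiated libraries of day 14, against 8377, 13850, 11511 and 12371 CPM in its controls. Of the control libraries 3 lay above all irradiated ones and 1 among them, and the log2 fold change was -0.30 ± 0.15 (edgeR adjusted p = 0.907). At day 90 irradiated libraries had 8107 to 10856 CPM and control libraries 8859 to 10622 CPM, with a log2 fold change of -0.07 ± 0.12. At day 180 irradiated libraries had 1501, 12175, 12582 and 9050 CPM and control libraries 6712, 6507, 7744 and 7973 CPM. Library 1 lay below all controls and the other 3 irradiated libraries above all controls. The log2 fold change with all libraries was 0.29 ± 0.50 (edgeR adjusted p = 0.776) and without library 1 it was 0.63 (adjusted p = 0.0554). With library 4 left out instead it was 0.28 (edgeR adjusted p = 0.818). The value thus rests on 1 library and passed the threshold in none of these fits.

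miR-503-3p, the less abundant arm of Mir503, was the other member whose groups separated. At day 14 it stood at 37.2, 34.0, 27.9 and 38.8 CPM in irradiated libraries and at 52.8, 49.2, 39.9 and 59.7 CPM in controls. The highest irradiated library lay just under the lowest control library, a separation in the lower direction shared by 1.6% of the 499 miRNAs tested. The log2 fold change was -0.55 ± 0.19 (edgeR adjusted p = 0.804), followed by -0.34 ± 0.24 at day 90 and -0.06 ± 0.40 at day 180. miR-503-5p, the arm with the family-like seed, had log2 fold changes of -0.22 ± 0.20, -0.18 ± 0.30 and -0.11 ± 0.53, and miR-322-3p of 0.14 ± 0.21, -0.53 ± 0.35 and -0.17 ± 0.51 at days 14, 90 and 180. For both, the groups overlapped at each day. Libraries with one number deviated together at day 14, and compared within these 4 pairs the irradiated library was the lower in all 4 for miR-15a-5p, miR-322-5p and miR-503-3p, as for 6.41% of the 499 miRNAs tested. With the pairs as a block the edgeR adjusted p of each of the 3 was 0.698. At day 180 miR-503-5p split the irradiated libraries, with 28.5 and 24.0 CPM in libraries 1 and 4 and 119 CPM in both of the others, while control libraries had 61.4 to 94.7 CPM. Without irradiated library 1, the log2 fold changes of day 180 were 0.15 for miR-503-5p, -0.09 for miR-503-3p, 0.08 for miR-322-3p, -0.25 for miR-195a-5p and -0.05 for miR-16-5p, none of them called. With irradiated library 4 left out instead they were 0.19, 0.23, 0.04, -0.29 and 0.03 in the same order, again with no call.

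The change of the radiation effect from day to day was tested as an interaction in a fit of all 24 libraries. None of the 9 members was called for day 90 minus day 14, day 180 minus day 14 or day 180 minus day 90, where 0% of 624 miRNAs were called in each. Members with an unadjusted p under 0.05 numbered 0 in each contrast, beside 4.49%, 11.4% and 14.6% of all miRNAs, and DESeq2 called 0, 2 and 2 miRNAs (0%, 0.136% and 0.136%), none of them a member. The members' differences in log2 fold change ran from -0.67 to 0.57, the lowest for miR-322-3p at day 90 minus day 14 and the highest for miR-322-5p at day 180 minus day 14. Their SEs were 0.58 and 0.49, so differences of that size lay close to their own error.

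Control lungs were also compared between days, on a common scale of the 12 control libraries. Of the 9 members 4 fell at day 180 relative to day 14 at the adjusted threshold, miR-497a-5p, miR-322-5p, miR-503-3p and miR-16-5p, and none rose, beside 6.21% of 564 miRNAs that fell and 8.69% that changed in either direction. DESeq2 likewise called 4 members, beside 13.5% of all miRNAs. Log2 fold changes were below 0 in 7 of 9 members and 48.8% of all miRNAs, with a median of -0.50 over the 9 and 0.02 over all tested. For 5 of 9 members every library of day 180 was below every library of day 14, which 11.7% of all miRNAs tested showed. Day, the age of the mice, the deposited table and any sequencing run change together here and cannot be told apart. Among miRNAs with a mean count of at least 100, 6 at day 14, 6 at day 90 and 0 at day 180 had counts identical to another miRNA in every library, and none of the 9 members was among them.

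miR-497a-5p was lower at each later day. Control libraries had 5252, 7758, 7486 and 7229 CPM at day 14, 5340, 4311, 3738 and 4716 CPM at day 90, and 3267, 3030, 3470 and 3394 CPM at day 180. All libraries of day 180 lay below all earlier ones, and those of day 90 overlapped day 14 through a single library at each day. Its means were 3290 ± 193 CPM at day 180 and 6931 ± 1140 CPM at day 14 (SD, n = 4 each), a log2 fold change of -1.07 ± 0.14, 2.11-fold lower (edgeR adjusted p = 0.00139, and 9.8e-10 to 0.00893 over 17 alternatives). Its level at day 90 was also below that at day 14, with a log2 value of -0.61 ± 0.14 for the fold (edgeR adjusted p = 0.0381), the single member called in that contrast, where 3.55% of 564 miRNAs were called and 2.48% fell. DESeq2 called 2 members there, beside 9.62% of all miRNAs. This day 90 call was lost in 11 of 17 alternatives, over all of which the adjusted p ran from 0.0019 to 0.152. Leaving out a library ended it in 9 of 12 fits, all except those without library 1 of day 14, library 1 of day 90 or library 4 of day 180.

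miR-322-5p followed the same order. Its control libraries had 8976, 15238, 12838 and 14048 CPM at day 14, 9737, 10022, 8135 and 8609 CPM at day 90, and 6471, 6215, 7359 and 7617 CPM at day 180, again with all of day 180 below all earlier libraries. The log2 fold change of day 180 over day 14 was -0.89 ± 0.15, 1.85-fold lower (edgeR adjusted p = 0.00509, and 1.9e-05 to 0.159 over 17 alternatives, of which 16 kept the call). The exception was the fit of all 24 libraries together. miR-503-3p had 56.6, 54.1, 44.5 and 67.7 CPM at day 14, 34.0, 54.1, 52.1 and 50.1 CPM at day 90 and 21.3, 23.0, 31.3 and 33.7 CPM at day 180. Its day 180 libraries were likewise the lowest of the 12, although the lowest library of day 90 came close to them. The log2 fold change of day 180 over day 14 was -1.03 ± 0.22, 2.04-fold lower (edgeR adjusted p = 0.0187, and 0.00071 to 0.0679 over 17 alternatives, with the call kept in 12). It was lost without library 2 or 4 of day 14, without library 1 or 2 of day 180, and in the fit of all 24 libraries.

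miR-16-5p fell less. It had 27510, 26640, 29587 and 27397 CPM at day 14, 23372, 23846, 24552 and 21668 CPM at day 90, and 20912, 20278, 19806 and 25543 CPM at day 180. Every later library was below every library of day 14, and day 180 overlapped day 90 through 1 high library. The means were 21635 ± 2644 CPM at day 180 and 27784 ± 1263 CPM at day 14, a log2 fold change of -0.36 ± 0.09, 1.28-fold lower (edgeR adjusted p = 0.0276, and 0.0056 to 0.112 over 17 alternatives). This call was kept in 9 of the 17. It was lost without a filter (adjusted p = 0.112) and, with adjusted p of 0.0501 to 0.0870, when library 2, 3 or 4 of day 14, library 1, 2 or 3 of day 180, or library 3 of day 90 was left out.

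The remaining members did not pass the test between day 180 and day 14. miR-503-5p had 75.1 ± 14.3 CPM at day 180 and 106.2 ± 14.0 CPM at day 14 without overlap (log2 fold change -0.50 ± 0.28, edgeR adjusted p = 0.287). For miR-195a-5p the log2 fold change was -0.68 ± 0.29 (edgeR adjusted p = 0.164), with the day 14 mean of 4055 ± 1917 CPM raised by 1 library of 6923 CPM beside 2947 to 3287 CPM in the others. For miR-15b-5p it was -0.47 ± 0.19 (edgeR adjusted p = 0.137). Of opposite sign and near 0 were miR-15a-5p at 0.10 ± 0.11 (edgeR adjusted p = 0.593) and miR-322-3p at 0.06 ± 0.37 (edgeR adjusted p = 0.950). Between day 180 and day 90 no member was called, where 0% of 564 miRNAs were called by edgeR and 17.6% had an unadjusted p under 0.05, as did 3 of the 9 members. DESeq2 made 30 calls in that contrast, 4.96% of those given an adjusted p, of which 1 was a member, miR-503-3p. Every library of day 90 was below every library of day 14 in 2 members, miR-16-5p and miR-195a-5p (7.45% of all miRNAs), and every library of day 180 below every library of day 90 in 3, miR-497a-5p, miR-322-5p and miR-503-3p (7.09%).

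**Figure D3:**
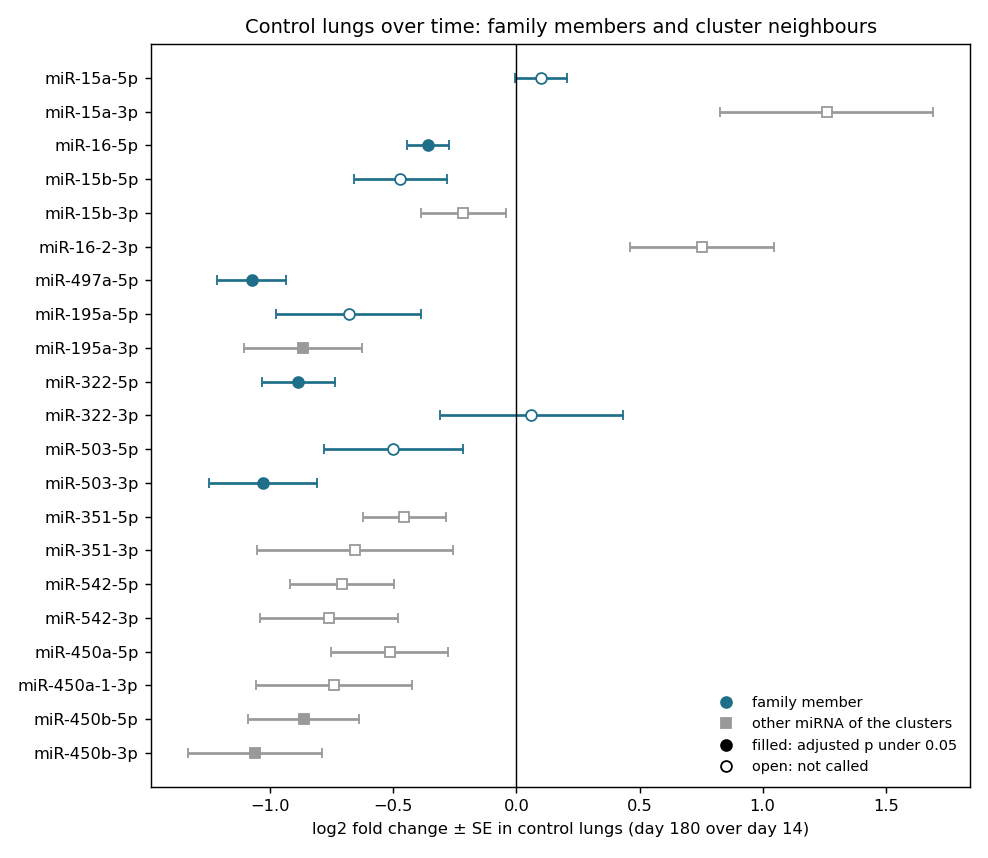
Log2 fold change with its SE in control lungs, day 180 over day 14 (edgeR, 4 libraries per day), for family members (circles) and other mature miRNAs of the same clusters (squares), filled where the adjusted p was under 0.05. miR-497a-5p at -1.07 and miR-322-5p at -0.89 lie to the left with most of the X cluster, while miR-15a-5p at 0.10 and miR-15a-3p at 1.26 lie right of 0.

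The other mature miRNAs of the same clusters were counted as a list of 15, of which 11, 12 and 12 were tested at days 14, 90 and 180. None was called after irradiation at any day, and their median log2 fold changes were -0.11, -0.15 and 0.09. Between day 180 and day 14 of the controls, 3 of 12 tested fell (6.21% of all 564 miRNAs did) and none rose, with a median log2 fold change of -0.68. These were miR-450b-3p (log2 fold change -1.06 ± 0.27, edgeR adjusted p = 0.0328) and miR-450b-5p (-0.86 ± 0.23, adjusted p = 0.0354), both of the X cluster, and miR-195a-3p (-0.87 ± 0.24, adjusted p = 0.0452). Those calls were kept in 10, 7 and 5 of 17 alternatives. All 8 tested neighbours of miR-322 and miR-503 on chromosome X had negative values. On chromosomes 3 and 14 the minor arms miR-15a-3p and miR-16-2-3p had log2 fold changes of 1.26 ± 0.43 and 0.75 ± 0.29 (edgeR adjusted p = 0.0938 and 0.123), at under 13 CPM in every control library. These 2 arms are below the level set for naming and were picked after their values were seen. The more abundant minor arm miR-15b-3p of chromosome 3 went the other way in controls. It averaged 51.0 ± 7.4 CPM at day 14 and 43.9 ± 4.0 CPM at day 180 (SD, n = 4 each), with overlap. A list of 12 miRNAs from the proliferation clusters miR-17 to miR-92a, miR-106b to miR-25 and miR-106a to miR-363 was set beside the family. After irradiation none of them was called. Their log2 fold changes were below 0 in 5 of 11 tested at day 14, 11 of 11 at day 90 and 8 of 10 at day 180, with medians of 0.0032, -0.42 and -0.42, and in 8 of 11 with a median of -0.30 at day 180 without irradiated library 1. Every irradiated library was below every control for 3 of them at day 180, miR-19b-3p, miR-20a-5p and miR-92a-3p, and for none at the earlier days. Of all miRNAs tested, 6.52% showed this at day 180, 1.6% at day 14 and 2.33% at day 90. Between day 180 and day 14 of the controls, 2 of 11 tested fell (6.21% of all 564 miRNAs did), miR-19b-3p (log2 fold change -1.20 ± 0.31, edgeR adjusted p = 0.0328) and miR-363-3p (-2.70 ± 0.68, adjusted p = 0.0321). The miRNAs of this list that are named here were picked after their values were seen.

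Summed cell-type markers also differed between the control days. On the scale of the 12 controls, the 2 endothelial markers summed to 47732 to 60421 CPM at day 14, 36532 to 38971 CPM at day 90 and 39751 to 44109 CPM at day 180. The 5 epithelial markers summed to 44199 to 47630 CPM, 33593 to 41908 CPM and 38498 to 41338 CPM at the same days. Both were therefore higher at day 14 than at either later day without overlap, while the other 8 marker lists overlapped between day 180 and day 14. The part of these markers in the family's lower levels was not tested.

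The clusters' shares of the family need no scaling between libraries, since each is a part of 1 library's counts for the 7 members from 5p arms. In control lungs the miR-15/miR-16 members made up 61.2 ± 2.7% at day 14, 67.8 ± 2.3% at day 90 and 71.0 ± 1.5% at day 180 (SD, n = 4 each), and all libraries of day 180 were above all of day 14. The miR-195a/miR-497a pair made up 17.9 ± 2.0%, 13.7 ± 1.0% and 13.2 ± 1.4%, and the miR-322/miR-503 pair 20.9 ± 4.0%, 18.5 ± 1.6% and 15.8 ± 1.2%. Within the miR-15/miR-16 group the ratio of miR-16-5p to miR-15a-5p was 3.74 ± 0.37 at day 14, 2.76 ± 0.18 at day 90 and 2.69 ± 0.22 at day 180. All 9 members together took 5.62 ± 0.19%, 5.31 ± 0.05% and 4.62 ± 0.32% of all miRNA counts in controls at the 3 days. In irradiated libraries the members took 4.83% to 5.22% at day 14, below the control range of 5.37% to 5.77%. At day 90 the ranges overlapped, with 4.84% to 5.40% in irradiated and 5.28% to 5.39% in control libraries. At day 180 irradiated library 1 had 2.92%. The other irradiated libraries of that day had 5.14% to 5.43%, above the control range of 4.38% to 5.07%. Shares are given as a description, with no test.

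The clusters' shares were also set beside those of irradiated lungs, with no test made. The mean miR-15/miR-16 share at day 14 was 62.5% in irradiated and 61.2% in control lungs. Day 90 gave 68.1% in irradiated and 67.8% in control lungs, and day 180 gave 70.0% in irradiated and 71.0% in control lungs. The spread between irradiated libraries was widest at day 180, with an SD of 11.6 percentage points against 1.5 in controls. Library 1 gave 86.4% to miR-15/miR-16 and 4.50% to miR-322/miR-503, beside 61.2% to 70.1% and 19.1% to 25.9% in the other irradiated libraries of that day. Without library 1 the mean miR-15/miR-16 share of day 180 was 64.5 ± 4.9% in irradiated lungs (SD, n = 3), against 71.0 ± 1.5% in control lungs (SD, n = 4). The miR-322/miR-503 share was then 22.7 ± 3.4% in irradiated lungs and 15.8 ± 1.2% in control lungs, and each of these 3 irradiated libraries lay above the control range of 15.1% to 17.7%.

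**Figure D4:**
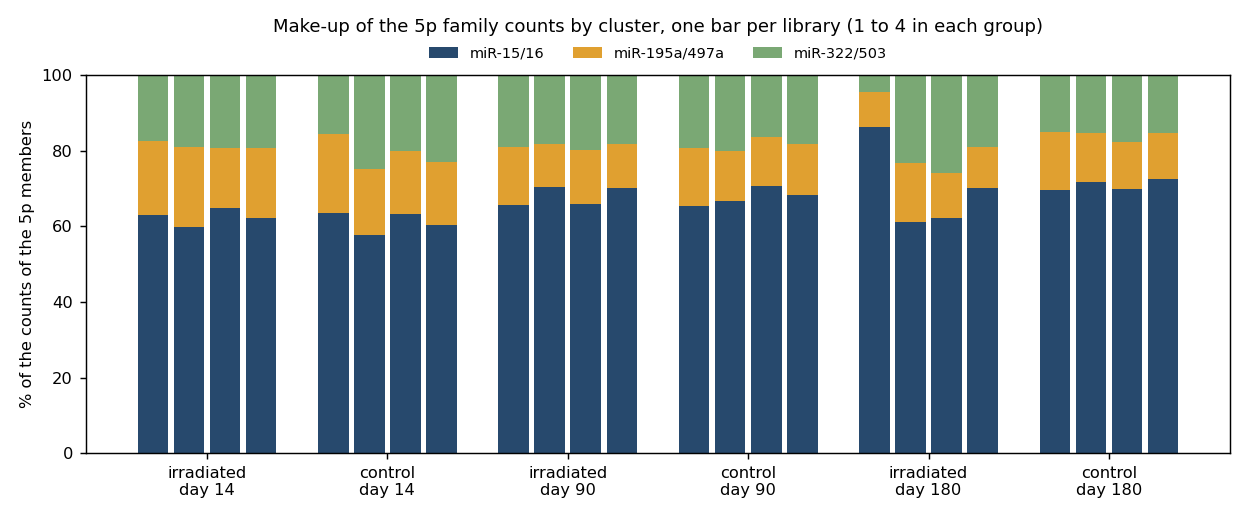
Percentage of the counts of the 5p members that came from miR-15/miR-16, miR-195a/miR-497a and miR-322/miR-503, 1 bar per library, irradiated groups left of their controls. On average the miR-15/miR-16 part is larger at days 90 and 180 than at day 14 in both arms, and irradiated library 1 of day 180 has the largest at 86.4%.

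Irradiated library 1 of day 180 was low for some members and not for others. It held the lowest of the 8 values in 6 of 9 members, beside 35.1% of the 552 miRNAs tested. miR-322-5p stood at 1501 CPM there, 5.31-fold below the median of 7973 CPM over the other 7 libraries, and miR-15b-5p at 463 CPM, 3.52-fold below 1629 CPM. miR-15a-5p and miR-497a-5p were 1.94-fold and 2.17-fold below. miR-16-5p, in contrast, stood at 24624 CPM, 114% of the median of 21693 CPM, and miR-503-3p at 104% of its median. From the same X cluster miR-351-5p, a miRNA of the miR-125 seed group, had 1625 CPM, 2.56-fold above the median of 634 CPM and the highest of the 8, and miR-450a-5p had 553 CPM against a median of 306 CPM. Other X neighbours were low in library 1: miR-450b-3p at 24.7% of its median, miR-542-3p at 35.2%, miR-542-5p at 49.2% and miR-450b-5p at 68.3%. miR-450a-1-3p stood at 10.3%, with 0.83 CPM, and miR-351-3p at 98.8%. The ratio of miR-322-5p to miR-351-5p was thus 0.924 in library 1 and 41.8 in irradiated library 4, against 11.4 to 13.0 in the 4 control libraries. Irradiated library 4 had the lowest values of miR-503-5p, at 24.0 CPM, and of miR-503-3p, at 10.8 CPM. Its miR-322-5p of 9050 CPM was above all controls. Library 1 also had the highest sum of the 8 for 5 of the 10 marker lists. Its epithelial sum was 68709 CPM, against 30447 to 43280 CPM in the other 7 libraries, and its endothelial sum 57787 CPM, against 37536 to 46415 CPM. Its erythroid sum was 39230 CPM, against 19500 to 33031 CPM, its smooth muscle sum 40907 CPM, against 29930 to 40035 CPM, and its myeloid sum 5212 CPM, against 2901 to 4027 CPM. The part of these markers in the members' values was not tested.

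**Figure D5:**
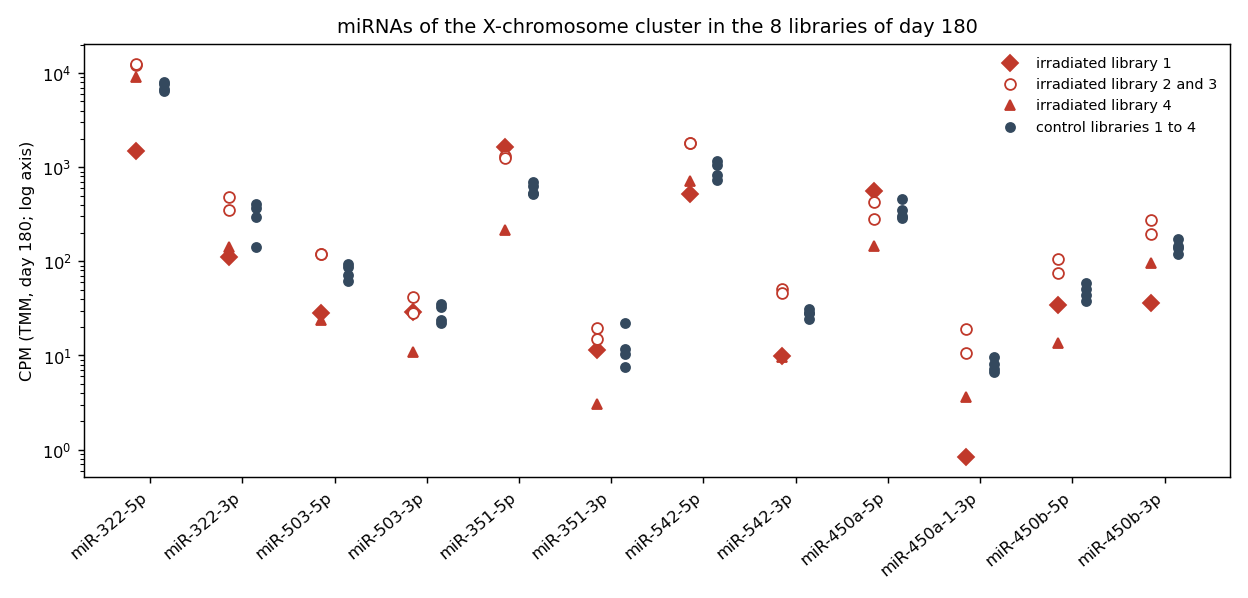
CPM (log axis) of 12 mature miRNAs of the X-chromosome cluster at day 180, with irradiated libraries in red (left; library 1 diamonds, libraries 2 and 3 open circles, library 4 triangles) and control libraries dark (right). Library 1 is lowest for miR-322-5p at 1501 CPM and highest for miR-351-5p at 1625 CPM, while library 4 is lowest for miR-351-5p at 217 CPM.

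The arms of a hairpin are cut from one precursor, and their ratio was not constant either. miR-322-5p exceeded miR-322-3p by 13.6-fold to 64.3-fold over the 24 libraries, and the ratio of miR-503-5p to miR-503-3p ran from 0.972 to 4.24. In controls this ratio for Mir503 averaged 1.94 ± 0.37 at day 14, 1.72 ± 0.47 at day 90 and 2.84 ± 0.80 at day 180 (SD, n = 4 each). The days overlapped. Control counts were 146 to 455 for miR-503-5p and 83 to 201 for miR-503-3p, and the part of such low counts in the spread was not tested.

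Members were also compared by how they varied inside the 6 groups, as Pearson's r of log2(CPM + 1) after subtraction of group means over 24 libraries. These r values are descriptions, since libraries share their scaling and library 1 of irradiated day 180 carries much of the variation. miR-497a-5p and miR-322-5p, from chromosomes 11 and X, varied most alike at r = 0.894, or 0.800 without that library. Among partners from one locus, r was 0.201 for miR-497a-5p with miR-195a-5p (0.091 without the library), 0.478 for miR-322-5p with miR-503-5p (0.343 without it) and 0.729 for miR-322-3p with miR-503-5p (0.685 without it). It was -0.031 for miR-322-5p with miR-503-3p (0.168 without the library). With miR-16-5p, which comes from both miR-15 loci, r was -0.119 for miR-15a-5p (0.186 without the library). For miR-15b-5p with miR-16-5p it was -0.079 (0.241 without the library). miR-15a-5p and miR-15b-5p, from chromosomes 14 and 3, had r = 0.743, which fell to 0.460 without the library. The arms miR-503-5p and miR-503-3p had r = 0.648, or 0.760 without it. Among 399 other miRNAs of at least 10 CPM on average, miR-664-3p (r = 0.940), miR-7a-1-3p (0.919) and miR-139-5p (0.914) varied most like miR-322-5p, and these values were 0.821, 0.766 and 0.748 without the library. Closest to miR-497a-5p were miR-664-3p (0.877), miR-200b-5p (0.832) and miR-1843a-3p (0.817), or 0.752, 0.683 and 0.691 without the library. Closest to miR-16-5p were miR-10a-5p (0.757), miR-26a-5p (0.743) and let-7c-5p (0.731), or 0.752, 0.718 and 0.719 without it.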

How the data were processed

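Small RNA of 18 to 30 bases was gel-purified from Trizol extracts, ligated to adaptors and amplified by PCR, per the labels' protocols. The submitters' processing notes list Bowtie2 and GRCm38.p6 without a role, and no label mentions unique molecular identifiers. The authors deposited a table per day with whole-number counts and RPM values per mature miRNA and library. The deposited RPM values divide the counts by 11984014 to 16081435 per library, 3.72 to 4.65 times the sum of the counts, a total that no label describes.

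Counts were tested with edgeR 4.0.16 (R 4.3.3): filterByExpr, TMM, quasi-likelihood test with its legacy fit, Benjamini-Hochberg over all miRNAs tested, threshold 0.05. Days were fitted alone. Differences between days used all 24 libraries, and time in controls the 12 control libraries, on 1477 shared miRNAs. The test was checked on simulated data with planted changes larger than the members showed after irradiation. That check does not cover changes of the members' size. Alternatives were RLE scaling, the authors' totals, no filter, DESeq2 1.42.0, a joint fit, a replicate block and leaving out each library. Members and lists were chosen with earlier results of these data known. Named miRNAs were the members, their cluster neighbours with at least 10 CPM or past the threshold, same-seed miRNAs, and the 3 most alike per cluster. The proliferation list was set to be counted only, and those of it that are named were picked after their values were seen.

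The titles number the libraries of each group and do not state pairs. Libraries with one number deviated together at day 14 (r of 0.408, 0.172, 0.465 and 0.411 for numbers 1 to 4), so the numbers were read as pairs there. At day 90 (-0.224 to 0.355) and day 180 (-0.356 to -0.093) they were not. The main fits used no block at any day. No libraries agreed within sampling noise.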

Additional observations from a re-analysis of the deposited data

Results flagged for a closer look

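In each group of 4 libraries, the highest or lowest value was compared with the nearest of the others by Dixon's ratio. Of 54 groups of a member at a day, 4 held a library past the critical value, where chance gives about 1 in 20. miR-15a-5p stood at 4715 CPM in irradiated library 2 of day 14, below 5963 to 6111 CPM in the other 3 irradiated libraries. The same miRNA reached 10429 CPM in control library 3 of day 90, above 8572 to 8673 CPM in the others. miR-16-5p reached 26738 CPM in control library 4 of day 180, above 20842 to 21693 CPM. miR-195a-5p reached 6461 CPM in control library 1 of day 14, above 2678 to 2947 CPM.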

How the results depend on the processing

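The counts of members called after irradiation (0 at each day) and for the difference between days (0 in each contrast) did not move in any alternative. Calls among all miRNAs did: at day 14, 0 became 1 with DESeq2, 1 in the joint fit, 7 without a filter and 0 to 1 with a library left out. At day 90, 2 became 18 with DESeq2, 0 in the joint fit, 18 without a filter and 0 to 7 with a library left out. At day 180, 0 became 26, 32, 18 and 0 to 5 in the same fits. A replicate block was fitted at each day, although libraries with one number deviated together at day 14 only. All miRNAs called with it numbered 0 at day 90, and the block changed no member's call.

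In controls, members called between day 90 and day 14 (1) became 2 with DESeq2, 0 in the joint fit, 0 with the authors' totals and 0 to 2 with a library left out. Between day 180 and day 14 (4) they became 2 in the joint fit and 2 to 4 with a library left out, with 2 left without library 2 or 4 of day 14 or library 1 or 2 of day 180. Between day 180 and day 90 (0) DESeq2 gave 1. Causes were not tested.

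Signs that turned belonged to uncalled log2 fold changes. miR-15a-5p at day 90 was 0.0030 with the authors' totals. At day 180 miR-16-5p was -0.013 in the joint fit, -0.015 with the authors' totals and -0.10 without a filter, miR-497a-5p -0.042 without a filter and -0.069 with the replicate block, and miR-322-5p -0.025 with the block. With a library left out, ranges crossing 0 were, after irradiation, -0.22 to 0.38 (miR-195a-5p, day 14), -0.11 to 0.018 (miR-15a-5p) and -0.31 to 0.034 (miR-195a-5p) at day 90, and at day 180 -0.27 to 0.034 (miR-15a-5p), -0.051 to 0.078 (miR-16-5p), -0.23 to 0.27 (miR-497a-5p), -0.62 to 0.079 (miR-322-3p), -0.46 to 0.19 (miR-503-5p) and -0.34 to 0.23 (miR-503-3p). In controls they were -0.10 to 0.31 (miR-322-3p, day 180 minus 14), and, for day 180 minus 90, -0.32 to 0.00046 (miR-15b-5p), -0.036 to 0.27 (miR-195a-5p), -0.37 to 0.089 (miR-322-3p) and -0.40 to 0.031 (miR-503-5p).

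With the most abundant 5p member of each cluster alone, 13 of 18 mean log2 ratios within a library moved by over 1 SD and 5 did not, namely all 3 ratios in irradiated lungs of day 180 and miR-15/miR-16 over miR-195a/miR-497a in both arms at day 90. miR-15/miR-16 over miR-322/miR-503 became 1.36 and 1.34 in irradiated lungs (days 14 and 90) and 1.15, 1.36 and 1.64 in controls (days 14, 90 and 180). miR-15/miR-16 over miR-195a/miR-497a became 2.02 in irradiated and 2.02 in control lungs at day 14 and 2.71 in controls at day 180. miR-322/miR-503 over miR-195a/miR-497a became 0.66 and 1.14 in irradiated lungs (days 14 and 90) and 0.87, 1.02 and 1.07 in controls. miR-503-3p was the least abundant member, at a median of 39.3 CPM, and the part of depth in its values was not tested.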
